A study of Mus musculus with 8 samples.

Results

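The response to SuHx that WT and Fpr2-KO right ventricles had in common was measured by RNA sequencing in all 8 libraries of the series, 4 of SuHx and 4 of control mice. Every library of the study entered, and the comparison set SuHx against control with genotype as a covariate, over 19083 tested genes of the 30495 in the deposited table. The tissue was the right ventricle of female mice aged 8 weeks. Each genotype gave 2 control and 2 SuHx libraries. The WT control and Fpr2-KO control groups spent 21 days in normoxia. The WT SuHx and Fpr2-KO SuHx groups were injected with Sugen (20 mg/kg) and spent 21 days in hypoxia. Fpr2-KO mice lacked Fpr2, the gene of formyl peptide receptor 2, and how or in which cells the allele was removed is not given in the sources used here. A library is named by its group and by the number at the end of its column header (WT control 1 and 2, WT SuHx 1 and 3, and 2 and 3 in each Fpr2-KO group).

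SuHx joins Sugen, an inhibitor of vascular endothelial growth factor receptors that is also known as a ligand of the aryl hydrocarbon receptor, with low oxygen. The combination narrows pulmonary arteries in rodents, so the right ventricle has to eject against a higher pressure. Loaded heart muscle is known to change its contractile proteins, to take less of its energy from fatty acids, and to gain matrix, vessels and immune cells. Both genotypes went through the same exposure. A test over 4 against 4 libraries can therefore measure a response that both share with less error than a test within either genotype. Where the genotypes respond differently, that difference enters the error of this test.

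The libraries held 67965311 to 76292772 counts. Mitochondrially coded genes took 24.2% to 26.1% of them in the control libraries and 26.4% to 28.2% in the SuHx libraries. Fpr2 itself had 19 and 23 counts in WT control, 12 and 12 in WT SuHx and 0 in each of the 4 Fpr2-KO libraries. The first principal component of the 500 most variable genes, with 37.8% of their variance, put the 4 SuHx libraries between 19.9 and 29.8 and the 4 controls between -37.5 and -17.8. Fpr2-KO SuHx library 2 stood apart on the second component, at 31.1. That library also held 2859 CPM summed over 9 markers of atrial muscle, such as Nppa, against 92.5 to 401 CPM in the controls. CPM are counts scaled to the TMM-adjusted library size, and they do not account for gene length. Cardiomyocyte markers, such as Myh6 and Tnnt2, summed to 32752 to 41246 CPM in control and 32585 to 41486 CPM in SuHx. Airway epithelium markers summed to at most 1.23 CPM in any library. In whole tissue, fewer cells of a type and less RNA per cell cannot be told apart.

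Over both genotypes 4778 of the 19083 tested genes were called, that is, had an edgeR quasi-likelihood adjusted p under 0.05, which is 25.0% of them. Of these, 2505 genes were higher in SuHx (13.1% of tested genes) and 2273 were lower (11.9%). A change of at least 2-fold was reached by 871 of the higher and 498 of the lower genes (together 7.17% of tested genes), and the median size of a called change was 0.67 on the log2 scale. Log2 fold changes are given as estimate ± standard error (SE), positive where SuHx was higher. The SE was derived from the quasi-likelihood test, as the size of the change divided by the square root of its F statistic. The median log2 fold change of all tested genes was 0.01. The 4 SuHx libraries lay wholly above or below the 4 controls for 4255 of the called genes, or 89.1%, against 29.3% of all tested genes. The test itself favours such genes, so this contrast is no separate support for the calls. Leaving out WT SuHx library 1 lowered the number of called genes to 2882, and leaving out WT SuHx library 3 lowered it to 3150. Gene lists are described below by how many of their tested members were called. Each such count over both genotypes is to be read beside the 13.1% of all tested genes called higher and the 11.9% called lower. Of 81 list counts between 1 and 5, 47 moved by more than 1.5 times when some single library was left out, and for larger counts each such move is given. The genes at the edge of the call were Ror2, with an adjusted p of 0.0499, and Depdc5, with 0.05003.

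All 4778 called genes had the same sign in WT and in Fpr2-KO when each genotype was fitted alone, which the test itself favours, since opposite changes cancel in it. The change was larger in WT for 3154 of them and larger in Fpr2-KO for 1624. With 2 against 2 libraries, 3919 genes were called in WT (20.5%, with 10.9% higher and 9.63% lower) and 2038 in Fpr2-KO (10.7%, with 4.93% higher and 5.75% lower). The pooled test and both single tests called 1296 genes, 636 higher and 660 lower. Another 1730 were called over both genotypes and in WT, and 459 over both genotypes and in Fpr2-KO. The remaining 1293 genes, 6.78% of those tested (3.71% higher and 3.07% lower), were called over both genotypes and in neither genotype alone. These tests share libraries, so the numbers divide the calls and are not independent comparisons. The median standard error of a log2 fold change was 0.196 over both genotypes, 0.252 in WT and 0.251 in Fpr2-KO.

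**Figure D1:**
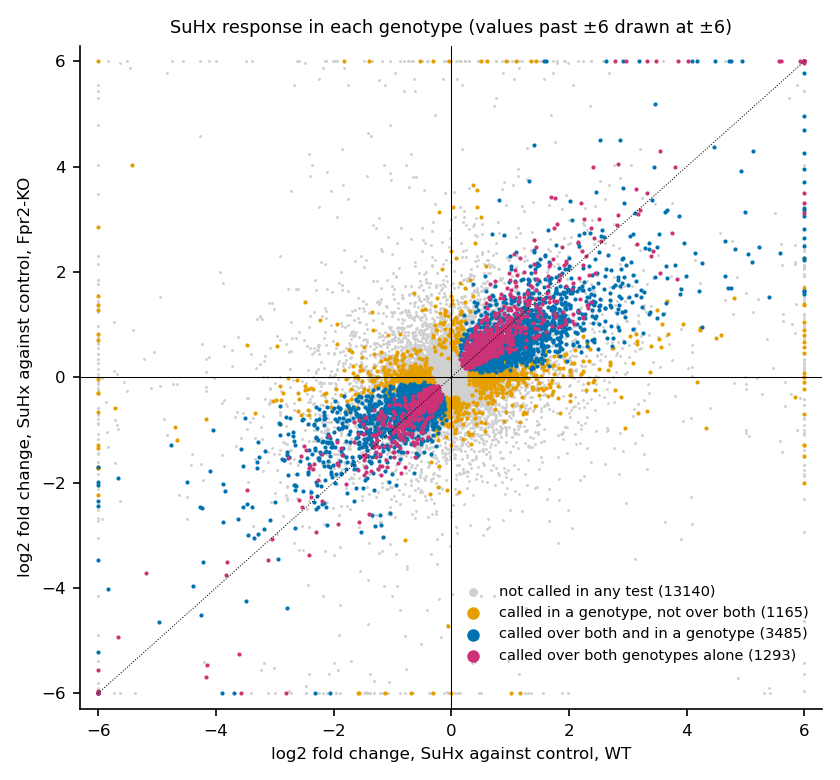
Each point is 1 of the 19083 tested genes, with its log2 fold change in WT on the horizontal axis and in Fpr2-KO on the vertical axis, and the dotted line marks equal change. The 1293 genes called over both genotypes alone lie in the same-sign quadrants on both sides of that line, and the 1165 genes called in a genotype but not over both spread along the axes and into the opposite-sign quadrants.

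For the genotype by SuHx interaction edgeR called 0 genes (0% of those tested), and the smallest adjusted p was 0.0794. An unadjusted interaction p under 0.05 was reached by 2417 tested genes and by 695 of the 4778 called genes (14.5%). The same interaction gave 584 calls with DESeq2 and 3 with limma-voom. It gave 756 calls without WT control library 2, 5 without WT control library 1 and 3 without either of the WT SuHx libraries. With 2 libraries in each group the interaction test therefore does not show that the responses were alike.

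**Figure D2:**
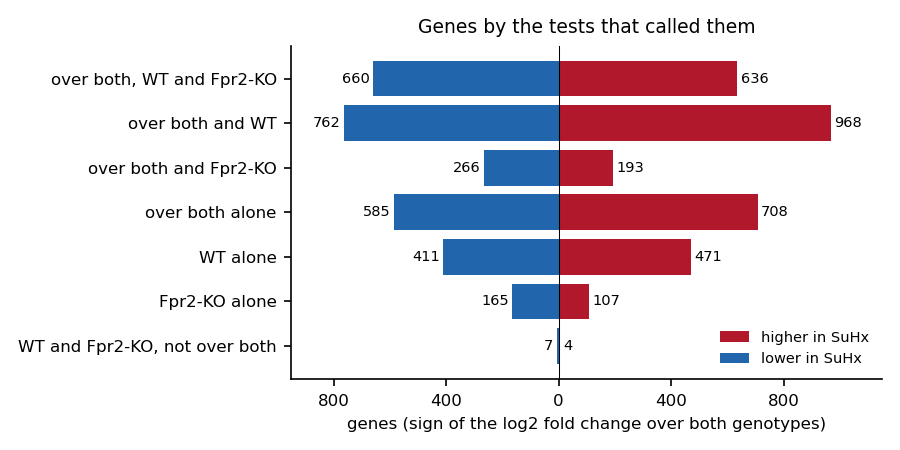
Bars count the genes called in each combination of the 3 tests (over both genotypes, in WT, in Fpr2-KO), higher in SuHx to the right and lower to the left. The largest class was called over both genotypes and in WT, with 968 higher and 762 lower genes, and 708 higher and 585 lower genes were called over both genotypes alone.

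Cyp1a1, which encodes a cytochrome P450 that oxidises aromatic compounds and is the classical target of the aryl hydrocarbon receptor, showed the largest rise among genes of at least 5 CPM whose groups did not overlap. Its level was 2.11 and 1.29 CPM in WT control, 0.201 and 0.435 in Fpr2-KO control, 212 and 255 in WT SuHx and 249 and 172 in Fpr2-KO SuHx. Every SuHx library was far above every control, in both genotypes (edgeR log2 fold change 8.02 ± 0.57, adjusted p = 0.000389). Ahrr, the repressor of the same receptor, held 2.36 and 2.91 CPM in WT control, 2.197 and 1.83 in Fpr2-KO control, 10.2 and 8.51 in WT SuHx and 9.40 and 7.66 in Fpr2-KO SuHx (edgeR log2 fold change 1.95 ± 0.16, adjusted p = 0.000222). Cyp1b1, a related P450 enzyme, rose from 10.04 to 30.7 CPM in the controls to 39.99 to 68.4 CPM under SuHx (edgeR log2 fold change 1.72 ± 0.30, adjusted p = 0.00544). Of the 11 tested receptor targets these 3 were called higher and 2 lower, beside 13.1% and 11.9% of all tested genes. Tiparp, another target, was not called (0.12 ± 0.16 log2).

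The RefSeq promoter windows of the 3 genes (GRCm38.p6, from 250 bases before to 50 after the start) are shown because the core of the xenobiotic response element, GCGTG, lies in all of them. The core is in capitals, and a match on the opposite strand reads CACGC.
Cyp1a1 (chr9:57697363-57697662, plus strand): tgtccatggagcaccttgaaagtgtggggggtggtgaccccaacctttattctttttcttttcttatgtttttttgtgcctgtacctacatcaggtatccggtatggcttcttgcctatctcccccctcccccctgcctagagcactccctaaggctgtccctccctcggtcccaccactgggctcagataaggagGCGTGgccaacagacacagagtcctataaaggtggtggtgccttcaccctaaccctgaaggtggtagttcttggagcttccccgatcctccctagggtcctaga
Cyp1b1 (chr17:79715012-79715311, minus strand): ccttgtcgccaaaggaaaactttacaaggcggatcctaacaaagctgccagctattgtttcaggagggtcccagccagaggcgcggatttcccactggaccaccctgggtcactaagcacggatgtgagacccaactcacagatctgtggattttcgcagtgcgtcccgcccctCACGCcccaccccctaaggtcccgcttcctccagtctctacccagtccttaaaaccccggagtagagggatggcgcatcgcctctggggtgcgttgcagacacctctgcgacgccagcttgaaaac
Ahrr (chr13:74292282-74292581, minus strand): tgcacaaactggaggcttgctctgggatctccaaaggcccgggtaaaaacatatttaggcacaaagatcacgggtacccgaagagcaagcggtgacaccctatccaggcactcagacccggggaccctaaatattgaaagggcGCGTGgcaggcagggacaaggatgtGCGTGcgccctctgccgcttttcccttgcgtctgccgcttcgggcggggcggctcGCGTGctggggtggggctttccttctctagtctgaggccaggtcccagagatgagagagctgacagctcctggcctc
The core starts 54 bases before the RefSeq start in Cyp1a1 and 76 bases before it in Cyp1b1, and Ahrr has it at 107, 82 and 27 bases. This 5-letter core is common: on either strand it occurs in 44.1% of all 15661 windows, in 44.9% of those of genes called higher and in 53.8% of those of genes called lower. The RefSeq start of Cyp1a1 lies 9685 bases from the 5′ end that the deposited table gives for the gene.

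Genes of the contractile apparatus moved in opposite directions. Acta1, the skeletal alpha-actin that fetal and loaded hearts express, was at 25.9 and 29.3 CPM in WT control, 26.1 and 35.2 in Fpr2-KO control, 276 and 145 in WT SuHx and 302 and 302 in Fpr2-KO SuHx. The SuHx libraries were all above the controls, in both genotypes (edgeR log2 fold change 3.12 ± 0.21, adjusted p = 0.000151). The gene of the slow myosin isoform, Myh7, went the other way and was at 6453 and 2931 CPM in WT control, 1642 and 4499 in Fpr2-KO control, 542 and 567 in WT SuHx and 484 and 459 in Fpr2-KO SuHx. Controls varied widely among themselves, yet none came down to the level of a SuHx library (edgeR log2 fold change -2.89 ± 0.38, adjusted p = 0.00252). Myh6, the fast alpha-myosin heavy chain of the adult mouse ventricle, was not called (0.16 ± 0.19 log2). Myh6 and Myh7, and the actin genes, are close in sequence, so reads shared between them could be split either way.

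Xirp1, an actin-binding protein of the intercalated disc, had the smallest p of all genes named here, with 583 and 623 CPM in WT control, 491 and 564 in Fpr2-KO control, 166 and 161 in WT SuHx and 144 and 154 in Fpr2-KO SuHx (edgeR log2 fold change -1.85 ± 0.07, adjusted p = 1.90e-05). The 4 controls and the 4 SuHx libraries formed tight and separate groups. Mybpc3, cardiac myosin-binding protein C, rose from 1075 to 1839 CPM in the controls to 2698 to 3111 CPM under SuHx (edgeR log2 fold change 1.13 ± 0.15, adjusted p = 0.00114). Myom2, which links myosin filaments at the M band, fell from 2086 to 2969 CPM in the controls to 769 to 1080.3 CPM under SuHx (edgeR log2 fold change -1.36 ± 0.13, adjusted p = 0.000421). The intermediate filament gene Des (log2 fold change -0.50 ± 0.09) fell too. Of 24 tested genes of the thick and thin filaments and their anchors, 4 were called higher and 6 lower, with a median log2 fold change of 0.01. Of all tested genes 13.1% were called higher and 11.9% lower. The count of higher genes was 7 when Fpr2-KO SuHx library 2 was left out. Among 18 fetal and load-responsive genes 3 were higher and 6 lower (median -0.22), beside the same shares of all tested genes. The stretch-responsive Fhl1 was among the lower (-1.12 ± 0.15).

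The natriuretic peptide genes, whose products are released by strained heart muscle, did not separate the groups. Nppa was at 90.1 and 218 CPM in WT control, 24.3 and 85.7 in Fpr2-KO control, 81.1 and 70.6 in WT SuHx and 1441 and 41.8 in Fpr2-KO SuHx, and its largest value came from Fpr2-KO SuHx library 2, the library with high atrial markers (1.36 ± 1.91 log2, edgeR adjusted p = 0.654). Nppb was not called either (-0.23 ± 0.43 log2).

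Among calcium and channel genes, more were called higher than lower, beside 13.1% higher and 11.9% lower of all tested genes. Casq2, the calcium store protein of the sarcoplasmic reticulum, rose from 276 to 497 CPM in the controls to 709 to 864 CPM under SuHx (edgeR log2 fold change 1.003 ± 0.14, adjusted p = 0.00148). Asph, whose locus also encodes the reticulum protein junctin, rose by 0.60 ± 0.09 on the log2 scale. Of 18 calcium handling genes 5 were called higher and 0 lower, and the number of higher genes was 3 when any one of WT SuHx library 1 or Fpr2-KO SuHx library 3 was left out. Atp2a2, the calcium pump of the reticulum, was not called (0.18 ± 0.13 log2). The pacemaker channel genes Hcn2 and Hcn4 were both higher. Hcn2 was at 22.3 and 14.6 CPM in WT control, 14.6 and 15.4 in Fpr2-KO control, 46.8 and 45.0 in WT SuHx and 44.0 and 38.1 in Fpr2-KO SuHx (edgeR log2 fold change 1.39 ± 0.13, adjusted p = 0.000387). Hcn4 was at 2.204 to 3.94 CPM in the controls and 6.21 to 9.14 CPM under SuHx (edgeR log2 fold change 1.404 ± 0.22, adjusted p = 0.00249). Scn7a, a sodium channel gene, fell by 0.62 ± 0.08 on the log2 scale. In all, 7 of 27 ion channel genes were called higher and 3 lower, again beside 13.1% and 11.9% of all tested genes.

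Chrna2, a nicotinic acetylcholine receptor subunit, was among the 15 largest decreases, at 19.5 and 12.7 CPM in WT control, 10.9 and 11.7 in Fpr2-KO control, 1.52 and 1.34 in WT SuHx and 0.299 and 0.881 in Fpr2-KO SuHx. All 4 SuHx libraries were below the lowest control (edgeR log2 fold change -3.85 ± 0.32, adjusted p = 0.000256). Adcy6, a main adenylyl cyclase of the heart, fell from 331 to 491 CPM in the controls to 207 to 285 CPM under SuHx (edgeR log2 fold change -0.77 ± 0.12, adjusted p = 0.00271). The receptor kinase gene Grk5 (-0.52 ± 0.11) and the phosphodiesterase gene Pde3a (-0.61 ± 0.11) were also lower. Dbh, which encodes the enzyme that makes noradrenaline, rose from a low level of 0.185 to 0.480 CPM in the controls and 1.75 to 3.15 CPM under SuHx (edgeR log2 fold change 2.86 ± 0.35, adjusted p = 0.000976). The transcription factor genes Gata4 (-0.58 ± 0.10), Gata6 (-0.72 ± 0.11) and Mef2d (-0.58 ± 0.08), which drive muscle gene expression, were lower, and Hopx was higher (0.56 ± 0.12). At the cell junctions, Jup (-0.47 ± 0.07) and Dsg2 (-0.55 ± 0.08) fell and Dsc2 rose (0.63 ± 0.13), a call that ended with no genotype covariate (edgeR adjusted p = 0.0694).

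Most genes for burning fatty acids fell. Of 35 tested genes of fatty acid uptake and oxidation, 26 were called lower and 1 higher, beside 11.9% and 13.1% of all tested genes, and their median log2 fold change was -0.73. In WT alone 25 of them were called lower (beside 9.63% of all tested genes) and in Fpr2-KO alone 26 (beside 5.75%). The 1 called higher was Acot13, a thioesterase, whose groups overlapped (0.25 ± 0.08) and whose call ended when any one library other than WT control library 1 was left out. Acot1, a cytosolic acyl-CoA thioesterase that responds to fatty acids, was at 341 and 278 CPM in WT control, 124 and 153 in Fpr2-KO control, 16.1 and 13.6 in WT SuHx and 4.92 and 12.8 in Fpr2-KO SuHx (edgeR log2 fold change -4.18 ± 0.30, adjusted p = 0.000252). Its mitochondrial relative Acot2 fell by 2.36 ± 0.13 on the log2 scale, with reads that the 2 similar genes may share. Slc27a1, a fatty acid transporter, fell from 342 to 626 CPM in the controls to 107 to 168 CPM under SuHx (edgeR log2 fold change -1.65 ± 0.12, adjusted p = 0.000168). The decreases reached the carnitine shuttle, with Cpt1b at 825 to 909.7 CPM in the controls and 434 to 577 CPM under SuHx (edgeR log2 fold change -0.74 ± 0.08, adjusted p = 0.000477). In the trifunctional enzyme of beta-oxidation, Hadha was at 1960.5 to 2158 CPM in the controls and 801 to 1239 CPM under SuHx (edgeR log2 fold change -0.96 ± 0.10, adjusted p = 0.000592). For each of these 5 decreases the lowest control lay above the highest SuHx library.

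Both described genes of ketone use were higher. Oxct1, the enzyme that activates ketone bodies for oxidation, was at 439 and 385 CPM in WT control, 584 and 449.9 in Fpr2-KO control, 1063 and 1237 in WT SuHx and 1032 and 1135 in Fpr2-KO SuHx (edgeR log2 fold change 1.27 ± 0.12, adjusted p = 0.000398). Bdh1, which converts beta-hydroxybutyrate, was at 15.8 to 53.6 CPM in the controls and 75.3 to 143 CPM under SuHx (edgeR log2 fold change 1.84 ± 0.43, adjusted p = 0.0211), a gene that was called in neither genotype alone and whose call ended without WT control library 1, WT control library 2, WT SuHx library 3 or Fpr2-KO SuHx library 2. The branched-chain amino acid enzyme genes Bckdha (-0.58 ± 0.08) and Acadsb (-0.59 ± 0.08) fell. Of 22 genes of both routes 3 were higher and 7 lower, and the lower count was 3 to 4 when any one of WT SuHx libraries 1 and 3, Fpr2-KO control libraries 2 and 3 or Fpr2-KO SuHx libraries 2 and 3 was left out.

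Pdk4, the kinase that shuts off pyruvate entry into mitochondria and rises with fasting, was at 4672 and 2544 CPM in WT control, 724 and 761 in Fpr2-KO control, 262 and 119 in WT SuHx and 106 and 159.9 in Fpr2-KO SuHx. The WT controls were above the Fpr2-KO controls, and the SuHx ranges of the genotypes overlapped (edgeR log2 fold change -3.36 ± 0.50, adjusted p = 0.0042). Its relative Pdk1, known as a hypoxia target, was lower as well (-0.66 ± 0.07), and the opposing phosphatase gene Pdp1 (0.52 ± 0.09) and the enzyme subunit gene Pdhb (0.46 ± 0.07) were higher. Of 27 glycolysis and glycogen genes 11 were called higher and 2 lower (median 0.22), and the higher count was 7 when both Fpr2-KO SuHx library 2 and WT control library 1 were dropped. Pgam2, the muscle phosphoglycerate mutase, rose from 152 to 166 CPM in the controls to 265 to 306 CPM under SuHx (edgeR log2 fold change 0.86 ± 0.07, adjusted p = 0.000252). Pfkfb2, which makes an activator of phosphofructokinase, and Pfkl, a phosphofructokinase subunit, rose by 0.93 ± 0.12 and 0.79 ± 0.10, and the glycogen phosphorylase gene Pygb fell (-0.57 ± 0.07).

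Of 18 lipid droplet and lipolysis genes 7 were called lower and 0 higher. Pnpla2, the lipase that starts triglyceride breakdown, was at 1328 and 1153 CPM in WT control, 891 and 829.8 in Fpr2-KO control, 305 and 295 in WT SuHx and 227 and 271 in Fpr2-KO SuHx, with separate groups in both genotypes (edgeR log2 fold change -1.92 ± 0.10, adjusted p = 4.31e-05). Lpl, which frees fatty acids from lipoproteins, fell from 5708 to 7987 CPM in the controls to 2787 to 3738 CPM under SuHx (edgeR log2 fold change -0.94 ± 0.10, adjusted p = 0.000522). Scd4, a cardiac stearoyl-CoA desaturase, was at 72.4 and 73.6 CPM in WT control, 58.2 and 75.2 in Fpr2-KO control, 13.6 and 5.32 in WT SuHx and 4.58 and 7.55 in Fpr2-KO SuHx (edgeR log2 fold change -3.20 ± 0.32, adjusted p = 0.000665). Ppargc1a, the coactivator PGC-1 alpha that drives mitochondrial gene expression, fell from 149.6 to 278 CPM in the controls to 65.0 to 95.6 CPM under SuHx (edgeR log2 fold change -1.39 ± 0.19, adjusted p = 0.00188). Of 39 nuclear genes of respiratory chain subunits 3 were called higher and 2 lower, with a median of 0.01, beside 13.1% and 11.9% of all tested genes. In the tricarboxylic acid cycle 4 of 19 genes were lower, among them Idh2 (-0.73 ± 0.09), and the count was 2 when WT SuHx library 1 was left out. The creatine kinase genes Ckb and Ckm rose. Ckb was at 14.2 to 18.3 CPM in the controls and 35.7 to 49.6 CPM under SuHx (edgeR log2 fold change 1.32 ± 0.12, adjusted p = 0.000337). Ckm was at 1281 to 1368 CPM in the controls and 1700.5 to 2141 CPM under SuHx (edgeR log2 fold change 0.53 ± 0.07, adjusted p = 0.00165). In that group 6 of 12 genes were higher, and the 3 lower ones, which include the creatine transporter gene Slc6a8 (-0.38 ± 0.08), were called over both genotypes alone. When both Fpr2-KO SuHx library 2 and WT control library 1 were dropped, the lower count was 0 and the edgeR adjusted p of Slc6a8 was 0.0570.

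**Figure D3:**
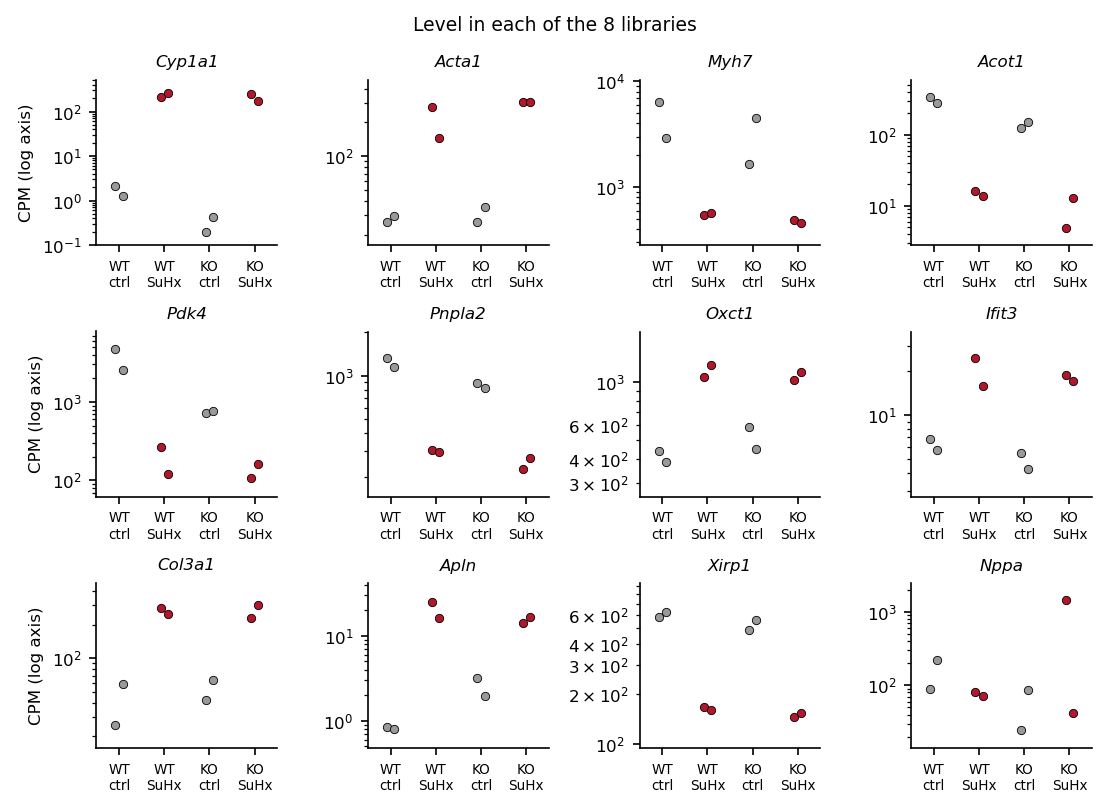
CPM of 12 genes in each of the 8 libraries, on a log axis, with control libraries in grey and SuHx libraries in red. For 11 of the genes the 4 SuHx points lie wholly above or below the 4 control points, and for Nppa they overlap, with 1 Fpr2-KO SuHx library above all others.

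Genes of protein synthesis and protein care were called lower more often than higher, mostly with changes under 2-fold. Of 28 translation factor genes 19 were called lower and 1 higher (median log2 fold change -0.35). Eif1, which selects the start codon, fell from 531 to 713 CPM in the controls to 309 to 381 CPM under SuHx (edgeR log2 fold change -0.81 ± 0.08, adjusted p = 0.000446). The helicase gene Eif4a2 (-0.81 ± 0.10) and the scaffold gene Eif3a (-0.60 ± 0.07) fell with it. The cap-binding gene Eif4e was the 1 that rose (0.54 ± 0.08). Of 35 cytosolic ribosomal protein genes 23 were lower and 0 higher (median -0.35), for instance Rps9 (-0.56 ± 0.10) and Rpl5 (-0.48 ± 0.09). The count of lower genes was 11 to 13 when any one of WT control library 2, WT SuHx libraries 1 and 3, Fpr2-KO control library 3 or Fpr2-KO SuHx library 3 was left out. Of these genes 17 were called lower in WT (beside 9.63% of all tested genes) and 1 in Fpr2-KO (beside 5.75%), a difference between the genotypes that was not tested. Ribosomal protein genes have many processed copies in the genome, with which they may share reads.

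Among 24 splicing regulators 12 were called lower and 0 higher (median -0.34), and the count was 6 to 7 when any one of WT control library 2, WT SuHx library 1, Fpr2-KO control libraries 2 and 3 or Fpr2-KO SuHx libraries 2 and 3 was left out. Mbnl2 (-0.67 ± 0.10), Hnrnpa1 (-0.49 ± 0.09) and Hnrnpl (-0.49 ± 0.09), RNA-binding proteins that choose exons, were among them. Of 30 heat shock and chaperone genes 9 were lower and 2 higher (median -0.29), beside 11.9% and 13.1% of all tested genes. Bag3, a co-chaperone that maintains the sarcomere, was at 272 and 358 CPM in WT control, 341 and 372 in Fpr2-KO control, 164 and 179 in WT SuHx and 154 and 162 in Fpr2-KO SuHx (edgeR log2 fold change -1.03 ± 0.11, adjusted p = 0.000493). The small heat shock protein genes Hspb1 (-0.97 ± 0.13) and Hspb7 (-0.60 ± 0.08) fell and Hspa2 rose (0.96 ± 0.21). For the proteasome 9 of 25 subunit genes were lower, such as Psmd4 (-0.77 ± 0.08) and Psmd11 (-0.72 ± 0.10), and 1 higher, beside the same shares. The lower count was 5 when any one of WT control library 2, WT SuHx libraries 1 and 3, Fpr2-KO control library 3 or Fpr2-KO SuHx libraries 2 and 3 was left out. The muscle ring-finger gene Trim54 fell (-1.01 ± 0.08) and its relative Trim55 rose (0.53 ± 0.10).

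Genes that remove oxidants and damaged mitochondria were called lower more often than higher, beside 11.9% lower and 13.1% higher of all tested genes. Cat, the gene of catalase, was at 599 and 482 CPM in WT control, 394 and 424 in Fpr2-KO control, 195 and 182 in WT SuHx and 157 and 170.3 in Fpr2-KO SuHx, with no overlap between groups (edgeR log2 fold change -1.42 ± 0.09, adjusted p = 0.000122). Gclm, a subunit of the enzyme that limits glutathione synthesis, fell from 50.8 to 79.2 CPM in the controls to 24.6 to 29.7 CPM under SuHx (edgeR log2 fold change -1.38 ± 0.14, adjusted p = 0.000468). The cytosolic superoxide dismutase gene Sod1 fell (-0.88 ± 0.09) and the extracellular one, Sod3, rose (0.75 ± 0.09). Of 27 such genes 11 were lower and 2 higher, and the lower count was 6 to 7 when any one of WT SuHx library 1, Fpr2-KO control library 3 or Fpr2-KO SuHx library 3 was left out. Bnip3, a mitophagy receptor and hypoxia target, fell from 391 to 943 CPM in the controls to 135 to 149 CPM under SuHx (edgeR log2 fold change -2.03 ± 0.19, adjusted p = 0.000429). The autophagy adaptor gene Sqstm1 (-1.29 ± 0.11) and the mitochondrial kinase gene Pink1 (-0.66 ± 0.08) fell too. Hmox1, the inducible haem oxygenase, was at 26.9 to 81.3 CPM in the controls and 11.3 to 13.8 CPM under SuHx (edgeR log2 fold change -2.35 ± 0.30, adjusted p = 0.00162). Of 22 genes of mitochondrial dynamics and mitophagy 8 were lower and 1 higher, and the lower count was 5 when Fpr2-KO SuHx library 3 was left out.

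Interferon-stimulated genes were the list with the highest share of calls. Of 29 tested members 27 were called higher and 0 lower, and the median log2 fold change was 1.39. In WT alone 27 were called higher (beside 10.9% of all tested genes) and in Fpr2-KO alone 20 (beside 4.93%). Ifit3, an antiviral protein that binds other IFIT proteins, was at 6.82 and 5.77 CPM in WT control, 5.43 and 4.25 in Fpr2-KO control, 24.6 and 15.9 in WT SuHx and 18.7 and 17.1 in Fpr2-KO SuHx. The SuHx libraries were all above the controls (edgeR log2 fold change 1.79 ± 0.16, adjusted p = 0.000337). Ifi44 rose from 1.26 to 1.62 CPM in the controls to 5.11 to 8.65 CPM under SuHx (edgeR log2 fold change 2.22 ± 0.21, adjusted p = 0.000343). Xaf1, a proapoptotic protein, rose from 4.95 to 5.601 CPM in the controls to 12.3 to 18.1 CPM under SuHx (edgeR log2 fold change 1.48 ± 0.14, adjusted p = 0.000337). Among the guanylate-binding and immunity-related GTPases, which attack intracellular microbes, 12 of 16 were higher and 0 lower. In WT alone 11 were called higher and in Fpr2-KO alone 5, a difference between the genotypes that was not tested. Of the 12, Gbp3 (1.82 ± 0.17), Gbp2 (1.95 ± 0.24) and Gbp5 (1.89 ± 0.26) had the smallest p. Members of the Ifit and Gbp families resemble each other and may share reads.

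Promoter windows of Ifit3 and of Bst2, a list member chosen after its values were seen, which tethers enveloped viruses at the cell surface and rose from 6.44 to 8.70 CPM in the controls to 19.3 to 29.5 CPM under SuHx (edgeR log2 fold change 1.55 ± 0.14, adjusted p = 0.000344), are shown with the interferon-stimulated response element in capitals. The element was searched as GAAA, any 2 bases and GAAA again, which reads as TTTC, any 2 bases and TTTC on the opposite strand. The 2 matches in Bst2 overlap.
Ifit3 (chr19:34583279-34583578, plus strand): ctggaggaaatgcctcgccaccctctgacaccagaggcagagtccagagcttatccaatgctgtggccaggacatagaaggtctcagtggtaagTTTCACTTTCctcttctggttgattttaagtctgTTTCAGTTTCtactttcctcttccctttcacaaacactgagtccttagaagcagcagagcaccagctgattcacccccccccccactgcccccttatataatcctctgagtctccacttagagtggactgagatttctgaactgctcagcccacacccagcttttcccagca
Bst2 (chr8:71537423-71537722, minus strand): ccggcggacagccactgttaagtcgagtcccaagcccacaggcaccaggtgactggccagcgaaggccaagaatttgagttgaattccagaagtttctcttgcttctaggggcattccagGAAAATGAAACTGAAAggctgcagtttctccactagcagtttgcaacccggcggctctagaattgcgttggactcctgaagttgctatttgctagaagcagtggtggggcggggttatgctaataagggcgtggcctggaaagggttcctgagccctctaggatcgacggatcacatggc
The element starts 156 and 122 bases before the start in Ifit3 and 130 and 124 bases before it in Bst2. It occurs in 12 of the 20 interferon-stimulated genes with a window and in 3.28% of all windows. Genes called higher held it in 4.84% of windows and genes called lower in 2.47%.

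Antigen presentation genes were higher in 19 of 23 cases and lower in 0 (median 1.14). In WT alone 16 were called higher (beside 10.9% of all tested genes) and in Fpr2-KO alone 5 (beside 4.93%). This difference between the genotypes was not tested. B2m, the light chain of class I molecules, rose from 119 to 179 CPM in the controls to 265 to 309 CPM under SuHx (edgeR log2 fold change 1.02 ± 0.12, adjusted p = 0.000955). Psmb9, a subunit of the immunoproteasome that cuts peptides for them, rose from 2.69 to 3.56 CPM in the controls to 8.13 to 10.1 CPM under SuHx (edgeR log2 fold change 1.57 ± 0.14, adjusted p = 0.000337). Psmb10, another such subunit, rose by 0.84 ± 0.09. Of the 4 members called over both genotypes alone, 3 present antigen on class II molecules, and the other one was H2-T23. The class II genes were picked out after their values were seen. H2-Ab1 was at 3.87 and 14.6 CPM in WT control, 28.2 and 12.1 in Fpr2-KO control, 52.3 and 43.9 in WT SuHx and 54.3 and 54.1 in Fpr2-KO SuHx (edgeR log2 fold change 1.903 ± 0.47, adjusted p = 0.027). The SuHx libraries were close to each other and the controls were not, and H2-Aa (1.70 ± 0.49) and Cd74 (1.55 ± 0.45) also had no overlap between groups. Each of these 3 calls ended without any one of WT control library 2, WT SuHx library 1, WT SuHx library 3, Fpr2-KO control library 3, Fpr2-KO SuHx library 2 or Fpr2-KO SuHx library 3. Cxcl9, a chemokine that interferon induces, was among the 15 largest increases, at 1.56 and 1.82 CPM in WT control, 1.85 and 2.91 in Fpr2-KO control, 13.8 and 11.3 in WT SuHx and 8.61 and 11.2 in Fpr2-KO SuHx (edgeR log2 fold change 2.47 ± 0.24, adjusted p = 0.000387).

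Macrophage and monocyte markers were called higher in 11 of 20 cases and lower in 0, and their summed level was 297 to 461 CPM in control and 493 to 626 CPM in SuHx. In WT alone 11 were called higher (beside 10.9% of all tested genes) and in Fpr2-KO alone 3 (beside 4.93%). This difference between the genotypes was not tested. The part of these cells in the rise of interferon and antigen presentation genes was not tested either. Adgre1, the surface antigen F4/80, was at 3.96 and 6.56 CPM in WT control, 11 and 8.72 in Fpr2-KO control, 17.7 and 20.1 in WT SuHx and 21.97 and 25.9 in Fpr2-KO SuHx (edgeR log2 fold change 1.56 ± 0.19, adjusted p = 0.00098). Lysozyme (0.87 ± 0.15 for Lyz2), the complement genes C1qa (0.87 ± 0.15), C1qb (0.75 ± 0.15) and C1qc (0.80 ± 0.16), which tissue macrophages make, and the phagocytic receptor gene Timd4 (1.29 ± 0.21) rose as well. Neutrophil markers summed to 1.78 to 13.4 CPM in control and 2.13 to 3.59 CPM in SuHx, and T and NK cell markers to at most 6.303 CPM in any library. Of 24 cytokine and acute-phase genes 7 were called lower and 2 higher. Serpina3n, a protease inhibitor, was at 57.6 and 79.0 CPM in WT control, 47.2 and 59.3 in Fpr2-KO control, 3.64 and 8.84 in WT SuHx and 9.67 and 3.71 in Fpr2-KO SuHx (edgeR log2 fold change -3.22 ± 0.39, adjusted p = 0.00177). Lcn2 (-2.27 ± 0.36) and the cytokine receptor gene Osmr (-0.75 ± 0.12) also fell. Stat3, which carries interleukin-6 family signals, fell from 146 to 174 CPM in the controls to 95.3 to 114 CPM under SuHx (edgeR log2 fold change -0.67 ± 0.08, adjusted p = 0.000841).

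Most collagen genes rose. Of 21 collagen genes 15 were called higher and 0 lower (median log2 fold change 1.08), 14 in WT alone (beside 10.9% of all tested genes) and 11 in Fpr2-KO alone (beside 4.93%). Col3a1, a fibrillar collagen of scars, was at 25.3 and 58.7 CPM in WT control, 41.9 and 64.0 in Fpr2-KO control, 284 and 249 in WT SuHx and 229.7 and 298 in Fpr2-KO SuHx. Each SuHx library was above each control (edgeR log2 fold change 2.49 ± 0.28, adjusted p = 0.000998). Col1a1, the main fibrillar collagen, rose from 16.4 to 37.7 CPM in the controls to 72.2 to 98.5 CPM under SuHx (edgeR log2 fold change 1.61 ± 0.24, adjusted p = 0.0027). Col6a1 (1.36 ± 0.15), Col6a2 (1.64 ± 0.17) and Col8a1 (1.29 ± 0.13), which build finer networks, rose too. Col15a1, a basement membrane collagen, was at 5.68 to 25.2 CPM in the controls and 69.3 to 99.5 CPM under SuHx (edgeR log2 fold change 2.42 ± 0.35, adjusted p = 0.00322). Pcolce, which speeds the trimming of procollagen, rose (1.32 ± 0.14). Lox, which crosslinks collagen, fell from 7.48 to 22.1 CPM in the controls to 2.64 to 3.54 CPM under SuHx (edgeR log2 fold change -2.08 ± 0.25, adjusted p = 0.000852).

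Postn, a matricellular protein of activated fibroblasts, was at 12.7 and 19.1 CPM in WT control, 22.5 and 19.1 in Fpr2-KO control, 70.3 and 71.1 in WT SuHx and 140.1 and 105 in Fpr2-KO SuHx, with no overlap (edgeR log2 fold change 2.36 ± 0.16, adjusted p = 0.000127). Of 36 matrix glycoprotein and proteoglycan genes 16 were higher and 2 lower. Sparc, which binds collagen, rose from 136 to 172 CPM in the controls to 366 to 467 CPM under SuHx (edgeR log2 fold change 1.41 ± 0.11, adjusted p = 0.000215), and Aspn, a small proteoglycan, rose by 1.197 ± 0.08. Thbs2, a thrombospondin that limits vessel growth, fell from 48.1 to 81.0 CPM in the controls to 22.2 to 28.7 CPM under SuHx (edgeR log2 fold change -1.42 ± 0.11, adjusted p = 0.000201). Matrix proteases and their inhibitors were called higher in 7 and lower in 7 of 25 cases, the lower count being 3 to 4 when any one of WT control libraries 1 and 2, WT SuHx library 3, Fpr2-KO control library 2 or Fpr2-KO SuHx library 3 was left out. Adam12, a metalloprotease of mesenchymal cells, rose from a low level (2.56 ± 0.38) and Mmp3, a stromelysin, fell (-2.198 ± 0.46). Markers of activated fibroblasts were higher in 9 of 11 cases, with a summed level of 92.9 to 189 CPM in control and 366 to 476 CPM in SuHx. General fibroblast markers gave 5 higher and 3 lower of 12, at 2714 to 3372 CPM in control and 2389 to 3212 CPM in SuHx, with Lum (1.499 ± 0.20) higher and Dpep1 (-1.19 ± 0.23) lower. The part of either cell type in the rise of collagen genes was not tested.

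Most genes of dividing cells rose from low levels. Of 41 tested DNA replication and mitosis genes 30 were called higher and 0 lower (median log2 fold change 1.64), and the higher count was 20 when Fpr2-KO SuHx library 3 was left out. In WT alone 27 were called higher (beside 10.9% of all tested genes). In Fpr2-KO alone 12 were called higher (beside 4.93%) and 1 lower. This difference between the genotypes was not tested. Mki67, a marker of cycling cells, was at 1.001 and 0.933 CPM in WT control, 0.646 and 0.870 in Fpr2-KO control, 7.78 and 6.85 in WT SuHx and 1.47 and 5.86 in Fpr2-KO SuHx. Every SuHx value was above every control, and the lowest SuHx value was 1.47 CPM (edgeR log2 fold change 2.60 ± 0.40, adjusted p = 0.0025). Cdk1, the kinase that starts mitosis, was at 0.185 and 0.184 CPM in WT control, 0.0718 and 0 in Fpr2-KO control, 1.87 and 2.21 in WT SuHx and 1.195 and 1.60 in Fpr2-KO SuHx (edgeR log2 fold change 4.14 ± 0.58, adjusted p = 0.00165). Mcm5, part of the replicative helicase, rose from 0.878 to 1.82 CPM in the controls to 4.08 to 6.93 CPM under SuHx (edgeR log2 fold change 2.18 ± 0.30, adjusted p = 0.00148). Cdc20, an activator of the anaphase-promoting complex, rose from 0.618 to 0.876 CPM in the controls to 2.05 to 2.51 CPM under SuHx (edgeR log2 fold change 1.64 ± 0.22, adjusted p = 0.00139).

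The promoter windows of Cdc20 and Cdk1 are shown with the cell cycle homology region, TTTGAA, in capitals, as both are known targets of the complex that reads this element.
Cdc20 (chr4:118437294-118437593, minus strand): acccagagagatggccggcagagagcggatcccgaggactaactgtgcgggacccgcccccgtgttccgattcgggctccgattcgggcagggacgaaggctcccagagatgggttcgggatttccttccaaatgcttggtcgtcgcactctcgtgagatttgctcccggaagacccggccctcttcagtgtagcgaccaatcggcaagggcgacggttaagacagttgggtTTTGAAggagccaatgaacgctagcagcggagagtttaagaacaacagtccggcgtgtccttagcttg
Cdk1 (chr10:69352863-69353162, minus strand): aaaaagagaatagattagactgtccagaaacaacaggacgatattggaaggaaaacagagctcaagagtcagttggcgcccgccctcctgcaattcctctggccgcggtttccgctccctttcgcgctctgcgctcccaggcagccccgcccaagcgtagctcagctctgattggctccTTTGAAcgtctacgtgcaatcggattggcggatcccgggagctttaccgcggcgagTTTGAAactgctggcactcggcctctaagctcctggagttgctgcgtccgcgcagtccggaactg
It starts 18 bases before the start in Cdc20 and 71 and 15 bases before it in Cdk1. On either strand (TTCAAA on the other) it was found in 16 of 34 replication and mitosis genes with a window and in 13.9% of all windows. Genes called higher held it in 13.3% of windows and genes called lower in 11.1%. The E2F site was searched too, in the forms TTTCCCGC and TTTGGCGC. Each form was found in 4 of the 34 genes, against 1.67% and 0.805% of all windows.

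The peptide Apln and its receptor Aplnr, which act on endothelium and heart muscle, were both among the 15 largest increases. Apln was at 0.847 and 0.805 CPM in WT control, 3.19 and 1.95 in Fpr2-KO control, 25.2 and 16.4 in WT SuHx and 14.2 and 16.6 in Fpr2-KO SuHx (edgeR log2 fold change 3.56 ± 0.45, adjusted p = 0.00161). Aplnr was at 1.80 and 3.65 CPM in WT control, 12.4 and 14.0 in Fpr2-KO control, 67.6 and 36.6 in WT SuHx and 59.3 and 59.7 in Fpr2-KO SuHx (edgeR log2 fold change 3.18 ± 0.52, adjusted p = 0.00577). In both, the WT controls were lower than the Fpr2-KO controls and all SuHx libraries were above all controls. The log2 fold change of Aplnr was 4.25 ± 0.41 in WT and 2.17 ± 0.37 in Fpr2-KO, a difference with an edgeR interaction adjusted p of 0.208. Of 23 VEGF, apelin and angiopoietin genes 8 were higher and 1 lower. The receptor tyrosine kinase gene Tie1 (0.71 ± 0.11) and the secreted factor gene Angptl2 (1.28 ± 0.14) rose, and Pdgfra, a receptor of fibroblasts, fell (-0.47 ± 0.10). Endothelial markers were higher in 9 of 20 cases and lower in 1, with a summed level of 1694 to 2057 CPM in control and 2001 to 2292 CPM in SuHx. Emcn, a surface protein of capillaries and veins, rose from 23.8 to 36.4 CPM in the controls to 54.6 to 70.7 CPM under SuHx (edgeR log2 fold change 0.998 ± 0.11, adjusted p = 0.000683). Their part in the rise of the vascular genes was not tested.

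Of 26 hypoxia targets and oxygen sensing genes 2 were called higher and 5 lower (median -0.07), and the lower count was 2 to 3 when any one of WT SuHx libraries 1 and 3, Fpr2-KO control library 2 or Fpr2-KO SuHx library 3 was left out. Of all tested genes 13.1% were called higher and 11.9% lower. Higd1a, a mitochondrial protein induced by low oxygen, was higher (0.76 ± 0.08). Immediate early genes, which respond to stimuli within minutes, were lower in 10 of 21 cases and higher in 0 (median -1.01). The lower count was 4 to 6 when any one of WT SuHx libraries 1 and 3, Fpr2-KO control libraries 2 and 3 or Fpr2-KO SuHx library 3 was left out. Nr4a1, a nuclear receptor of this class, was at 142 and 212 CPM in WT control, 45.0 and 35.7 in Fpr2-KO control, 6.001 and 9.68 in WT SuHx and 12.6 and 7.77 in Fpr2-KO SuHx (edgeR log2 fold change -3.24 ± 0.60, adjusted p = 0.00921). The 2 WT controls were far above the 2 Fpr2-KO controls, and all controls were above the SuHx libraries. Myc fell from 4.93 to 19.8 CPM in the controls to 2.83 to 3.78 CPM under SuHx (edgeR log2 fold change -1.85 ± 0.36, adjusted p = 0.0078). Atf3, a stress-induced transcription factor, was at 12.4 and 171 CPM in WT control, 52.1 and 47.6 in Fpr2-KO control, 2.48 and 2.57 in WT SuHx and 4.27 and 3.36 in Fpr2-KO SuHx (edgeR log2 fold change -4.44 ± 0.86, adjusted p = 0.0129), and its call ended without WT SuHx library 1, WT SuHx library 3 or Fpr2-KO SuHx library 3. The hour of sampling is not given in the sources used here.

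Clock genes were called in both directions, 3 higher and 7 lower of 19, the lower count being 4 when any one of Fpr2-KO control library 3 or Fpr2-KO SuHx library 2 was left out. The share of clock genes called higher was close to the 13.1% of all tested genes, of which 11.9% were called lower. Dbp, an output of the clock, was at 49.7 and 57.2 CPM in WT control, 75.5 and 58.6 in Fpr2-KO control, 174 and 187 in WT SuHx and 182 and 141 in Fpr2-KO SuHx (edgeR log2 fold change 1.51 ± 0.14, adjusted p = 0.000337). Cry2, a repressor of the core loop, was at 84.3 and 64.5 CPM in WT control, 58.1 and 44.9 in Fpr2-KO control, 38.0 and 36.7 in WT SuHx and 37.7 and 30.1 in Fpr2-KO SuHx (edgeR log2 fold change -0.80 ± 0.14, adjusted p = 0.00426). Of 26 genes of the insulin, insulin-like and fibroblast growth factor families 5 were lower and 2 higher. Insr, the insulin receptor, was at 210.0 to 314 CPM in the controls and 112 to 125 CPM under SuHx (edgeR log2 fold change -1.06 ± 0.09, adjusted p = 0.000306). Igf1r (-0.79 ± 0.14) and Fgf1 (-0.53 ± 0.09) were lower and Igfbp7, a binding protein for these factors, was higher (1.30 ± 0.13). Tnfrsf12a, the receptor of the cytokine TWEAK, was at 39.8 and 101 CPM in WT control, 103 and 171 in Fpr2-KO control, 16.5 and 12.2 in WT SuHx and 26.7 and 21.3 in Fpr2-KO SuHx (edgeR log2 fold change -2.41 ± 0.31, adjusted p = 0.00194). Among cytoskeletal genes, thymosin beta 4 (Tmsb4x, 1.24 ± 0.08), vimentin (Vim, 1.27 ± 0.11) and Tuba1a (1.09 ± 0.14) rose.

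Several of the largest changes belong to genes better known from other tissues. Sez6l2, a surface protein studied in neurons, was at 0.962 to 1.5 CPM in the controls and 7.93 to 11.1 CPM under SuHx (edgeR log2 fold change 2.90 ± 0.20, adjusted p = 0.000127). Mdga1, another, was at 0.970 to 3.66 CPM in the controls and 13.3 to 19.6 CPM under SuHx (edgeR log2 fold change 2.86 ± 0.36, adjusted p = 0.00121). Nrep, a small protein first described in neurons, rose from 1.85 to 3.27 CPM in the controls to 16.5 to 27.8 CPM under SuHx (edgeR log2 fold change 3.12 ± 0.22, adjusted p = 0.000149). Mest, an imprinted gene of fetal growth, rose from 1.54 to 2.97 CPM in the controls to 9.71 to 14.0 CPM under SuHx (edgeR log2 fold change 2.57 ± 0.21, adjusted p = 0.000215). Neurl3, a ubiquitin ligase, was at 2.46 to 4.74 CPM in the controls and 12.1 to 19.7 CPM under SuHx (edgeR log2 fold change 2.23 ± 0.24, adjusted p = 0.000538). Itgb6, an integrin subunit of epithelia, had a log2 fold change of 3.08 ± 0.81, but its call ended without WT control library 2, WT SuHx library 1, WT SuHx library 3, Fpr2-KO control library 3 or Fpr2-KO SuHx library 3. Among the decreases, Inmt, a methyltransferase, was at 31.4 to 66.9 CPM in the controls and 4.72 to 8.37 CPM under SuHx (edgeR log2 fold change -2.92 ± 0.27, adjusted p = 0.000402). Vwa3a was at 16.7 to 26.4 CPM in the controls and 2.21 to 5.72 CPM under SuHx (edgeR log2 fold change -2.36 ± 0.20, adjusted p = 0.000252). Tacc2, a coiled-coil protein, was at 698 to 2129 CPM in the controls and 166 to 272 CPM under SuHx (edgeR log2 fold change -2.36 ± 0.20, adjusted p = 0.000334). H1f2, a linker histone, fell from 338 to 611 CPM in the controls to 75.4 to 93.4 CPM under SuHx (edgeR log2 fold change -2.36 ± 0.14, adjusted p = 0.000116).

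**Figure D4:**
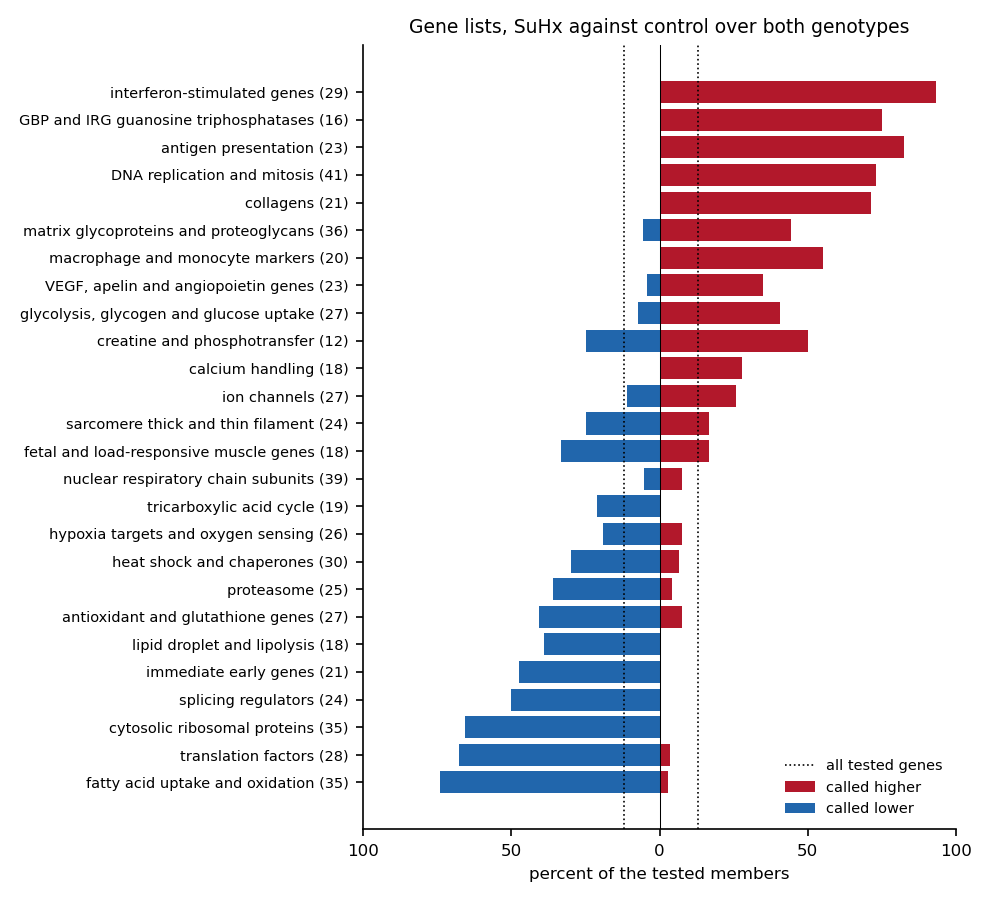
Bars give the percent of the tested members of each list (number in brackets) that were called higher, to the right, or lower, to the left, over both genotypes. The dotted lines mark all tested genes, 13.1% higher and 11.9% lower, and lists run from interferon-stimulated genes, with 27 of 29 higher, to fatty acid uptake and oxidation, with 26 of 35 lower.

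The 1293 genes that the 4-against-4 test called and neither single genotype did comprised 708 higher and 585 lower genes. They are described here without a test, since the calls themselves chose them. Their median size was 0.55 on the log2 scale, with 0.52 in WT and 0.56 in Fpr2-KO, against 0.89 for the 1296 genes called in all 3 tests. Their median CPM, which is not per length, was 10.1, against 29.2 for those. Their median standard error was 0.149 over both genotypes and 0.214 in each genotype. The 4 SuHx and 4 control libraries did not overlap for 79.7% of the 1293 genes. This compares with 99.5% of the 1296 genes, 89.1% of all called genes and 29.3% of all tested genes, and the calls favour such genes. A change of at least 2-fold was reached by 312 of the 1293 and by 551 of the 1296. An adjusted p under 0.10 in WT or in Fpr2-KO was reached by 875 of the 1293 genes, and in both by 151. The number of such genes was 416 without WT control library 2, and 1661 without WT SuHx library 3.

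Of the 10 higher and 10 lower genes of smallest p, among those of at least 5 CPM whose groups did not overlap, 18 are named here. Parp12, an interferon-induced ADP-ribosyltransferase, was at 21.9 and 25.2 CPM in WT control, 22.2 and 18.5 in Fpr2-KO control, 32.4 and 30.3 in WT SuHx and 27.7 and 28.6 in Fpr2-KO SuHx (edgeR log2 fold change 0.44 ± 0.09, adjusted p = 0.00956). The groups did not overlap, and the changes of 0.41 ± 0.13 in WT and 0.47 ± 0.13 in Fpr2-KO each missed the threshold. Akr1e1, an aldo-keto reductase, was at 15.9 and 13.8 CPM in WT control, 15.5 and 14.1 in Fpr2-KO control, 21.1 and 19.6 in WT SuHx and 19.4 and 22.7 in Fpr2-KO SuHx (edgeR log2 fold change 0.48 ± 0.10, adjusted p = 0.00847). Tsc22d1, a leucine zipper protein that TGF-beta induces, rose from 168 to 202 CPM in the controls to 229 to 302 CPM under SuHx (edgeR log2 fold change 0.47 ± 0.10, adjusted p = 0.01). Scrn1 had the largest change of the higher 10, from 4.11 to 8.13 CPM in the controls to 9.44 to 16.2 CPM under SuHx (edgeR log2 fold change 1.07 ± 0.23, adjusted p = 0.0104). Fbf1, a protein of the ciliary base (0.64 ± 0.14), Tcf3, a helix-loop-helix factor (0.51 ± 0.11), the ubiquitin ligase gene Trim32 (0.47 ± 0.10), the glycosyltransferase gene Mgat4a (0.51 ± 0.11), Trp53i11 (0.63 ± 0.14) and the folate enzyme gene Ggh (0.56 ± 0.12) made up the rest.

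The lower ones include genes of contraction and of splicing. Tnnt2, cardiac troponin T, was at 6274 and 5772 CPM in WT control, 5796 and 5884 in Fpr2-KO control, 4857 and 4875 in WT SuHx and 4249 and 4919 in Fpr2-KO SuHx (edgeR log2 fold change -0.33 ± 0.07, adjusted p = 0.00971). The highest SuHx value lay below the lowest control, and the change was -0.31 ± 0.10 in WT and -0.35 ± 0.10 in Fpr2-KO. Dusp8, a phosphatase of stress kinases, was at 26.5 to 50.1 CPM in the controls and 21.6 to 24.8 CPM under SuHx (edgeR log2 fold change -0.84 ± 0.17, adjusted p = 0.00875). Srsf11 (-0.43 ± 0.09) and Pnn (-0.48 ± 0.10), proteins of splicing speckles, Hdac6, a tubulin deacetylase (-0.43 ± 0.09), Zbtb11 (-0.82 ± 0.17), Mettl9, a histidine methyltransferase (-0.46 ± 0.10), and Yrdc, an enzyme of transfer RNA modification (-0.57 ± 0.12), complete the 8 named here. None of these 18 calls ended when a single library was left out, but those of Scrn1, Tcf3, Ggh, Tnnt2 and Srsf11 ended when both Fpr2-KO SuHx library 2 and WT control library 1 were dropped. Lists with at least 4 such genes, beside 6.78% of all tested genes, were cytosolic ribosomal proteins (6 of 35), antioxidant genes (5 of 27), matrix proteases and inhibitors (4 of 25), antigen presentation (4 of 23), solute carriers (4 of 23), immediate early genes (4 of 21) and creatine and phosphotransfer genes (4 of 12). Interferon-stimulated genes held 0 of 29.

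**Figure D5:**
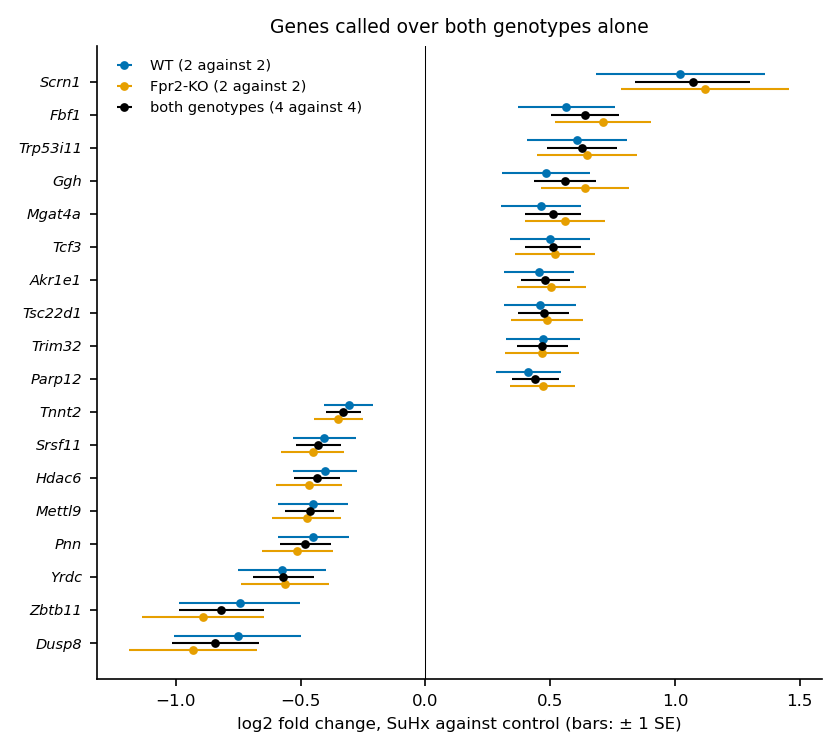
Log2 fold change with its standard error for 10 higher and 8 lower genes of smallest p that were called over both genotypes alone, in WT (blue), in Fpr2-KO (orange) and over both (black). The WT and Fpr2-KO values lie close together, from Dusp8 at -0.84 to Scrn1 at 1.07 over both genotypes, and the black bars are the shortest. The way these genes were chosen favours both features.

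A further 1165 genes were called in a genotype but not over both, 882 in WT, 272 in Fpr2-KO and 11 in both. For the 882 the median standard error was 0.185 over both genotypes and 0.174 in WT. For the 272 it was 0.175 over both genotypes and 0.162 in Fpr2-KO. For the 11 it was 0.265 over both genotypes, 0.143 in WT and 0.144 in Fpr2-KO. The 11 were called in opposite directions in the 2 genotypes and were looked at for that reason after their values were seen. Cacnb2, a subunit of the calcium channel, was at 30.8 and 38.5 CPM in WT control, 106 and 109 in Fpr2-KO control, 82.6 and 75.5 in WT SuHx and 71.1 and 75.4 in Fpr2-KO SuHx, a change of 1.19 ± 0.12 in WT and -0.55 ± 0.12 in Fpr2-KO. Kcnj5, a subunit of the acetylcholine-gated potassium channel, changed by 0.52 ± 0.15 in WT and -0.68 ± 0.15 in Fpr2-KO. In all 11 the difference between the genotypes was larger in control than in SuHx libraries. Their edgeR interaction adjusted p ran from 0.0794 to 0.118, so none was called for the interaction. For 9 of them the larger change was in WT.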

How the data were processed

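RNA was sequenced from 8 right ventricle libraries, 2 in each of 4 groups. The deposited table gives counts per gene and library, as whole numbers that the authors did not normalize, per the file headers. The submitters' processing notes name cutadapt 1.9, HISAT2 2.2.1, StringTie 2.1.6, DESeq2, edgeR and the build mm10. The sources used here do not give the role of each tool, the annotation release or the strand setting of the counting, so reads of overlapping or antisense genes may be mixed. Another 8 columns of values per library were not used.

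Groups follow the sample titles, because the genotype field of 3 Fpr2-KO samples names another gene. Column headers show the group, but their numbers differ from the titles and do not say which sample a column is. No label says that the libraries are separate animals. The p-values therefore cover only the spread among these libraries, which may be technical. Within a group, both libraries differed well beyond sampling noise, with a chi-square per degree of freedom of 23.6 to 76.8.

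Counts were analysed in R 4.3.3 with edgeR 4.0.16. Genes were kept by filterByExpr over the 4 groups, and library sizes were scaled by TMM (factors 0.956 to 1.08). A quasi-likelihood fit with genotype and treatment (5 residual degrees of freedom) gave the SuHx effect over both genotypes. A fit with a mean for each group (4 residual degrees of freedom) gave the effect in WT, in Fpr2-KO and the interaction. Tests were two-sided, with Benjamini-Hochberg adjustment over 19083 genes and calls at adjusted p under 0.05. The common biological coefficient of variation was 27.7%. The fitting code was tested on simulated data. CPM used the scaled library sizes.

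Alternatives were DESeq2 size factors, upper-quartile scaling, mitochondrially coded genes left out, no filter, 1 CPM in 4 libraries, DESeq2 1.42.0, limma-voom (limma 3.58.1), averaged group means, no genotype covariate, a block by column number, and libraries left out. Where that left 1 library in a group, the lone library was assumed to vary like the other groups.

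Named genes were the 15 largest changes in each direction among called genes of at least 5 CPM whose groups did not overlap, up to 3 called members of each list in the main direction and 1 in the other, the 10 genes in each direction of smallest p called over both genotypes alone, the 10 in each direction with the largest change reached in both genotypes, and a set of genes fixed by name. Some genes that this rule takes are not reported here. The members and lists were chosen with earlier results of these data known. Promoter windows came from RefSeq (GRCm38.p6), and 15661 genes had 1. Elements that were searched but not shown include the heat shock element, in 4 of 25 chaperone genes with a window (0.453% of all windows). The peroxisome proliferator response element was in 0 of 29 fatty acid genes (0.0511%). The E-box was in 5 of 16 clock genes (8.91%).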

Additional observations from a re-analysis of the deposited data

Results flagged for a closer look

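In 18 of 438 groups of 4 libraries (4.11%) 1 library stood apart, that is, its gap to the nearest other library divided by the range of the group passed Dixon's 95% critical value for 4 samples. Chance gives such a gap in about 1 group in 20. In Fpr2-KO SuHx library 2 the summed atrial markers were 2859 CPM (gap share 0.986) and Nppa was 1441 CPM against 41.8 to 81.1 CPM in the other SuHx libraries (0.972). Tnnt2, at 4249 CPM, was the lowest of the SuHx libraries there (0.908), and it remained called without that library.

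Fpr2-KO control library 2 was high in Myh6, with 18886 CPM against 11558 to 12479 CPM in the other controls (0.874), and in the summed cardiomyocyte markers, with 41246 CPM (0.872). It was low in Hmox1, with 26.9 CPM against 76.5 to 81.3 CPM (0.913), and in Scd4, with 58.2 CPM (0.835). Without that library Myh6 was called higher. In Fpr2-KO control library 3 Dsg2 was low (0.833), and in Fpr2-KO SuHx library 3 Cry2 was low (0.830).

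WT control library 1 was high in Hcn2 (0.896) and Inhbb (0.849) and low in the summed thymus markers (0.853), and WT control library 2 was high in Gata6 (0.920). WT SuHx library 1 was high in Sez6l2 (0.851) and Hspa2 (0.8292) and low in Lyz2 (0.847). WT SuHx library 3 was low in Acta1, with 145 CPM against 276 to 302 CPM in the other SuHx libraries (0.830), and high in Mgat4a (0.880). Each called gene named here stayed called when its outlying library was left out.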

How the results depend on the processing

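Over both genotypes 4278 to 6037 genes were called under the alternatives that kept all 8 libraries and had no replicate block, against 4778 as reported, and 2882 to 4707 with a single library left out. The lowest counts came without WT SuHx library 1 (2882) and WT SuHx library 3 (3150). The number called over both genotypes alone was 416 without WT control library 2 and up to 1661 without WT SuHx library 3. The interaction gave 0 genes with edgeR, 12 with no filter on low counts, 584 with DESeq2 and 3 with limma-voom, and 0 to 756 with a library left out. When both Fpr2-KO SuHx library 2 and WT control library 1 were dropped, 3626 genes were called over both genotypes. A replicate block by the number in the column header gave 3359 genes over both genotypes, 1173 of them called in neither genotype alone, and 0 for the interaction. Deviations from the group means correlated by -0.023 to 0.041 over 7 same-numbered pairs of libraries. With 2 libraries per group the 2 deviations mirror each other, so these pairs are not separate checks and cannot exclude a pairing. Upper-quartile scaling raised the share of higher genes among those called from 52.4% to 58.2%.

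Of the 200 genes given with a value, 193 were called, and 177 of these stayed called with the same direction under each of the 19 alternatives that tested them. This is no rate for all called genes, since genes that the naming rule takes were left out, some with calls that ended without 1 library. Of all 4778 called genes, 68.1% stayed called in the same direction with the replicate block and 89.2% with no filter on low counts. No filter on low counts ended the calls of Bdh1, H2-Ab1, H2-Aa, Cd74 and Itgb6, and the replicate block those of Acot13, H2-Aa, Cd74 and Itgb6. Averaged group means ended those of H2-Aa and Cd74, limma-voom that of Atf3, no genotype covariate those of Dsc2 and Acot13, and DESeq2 size factors that of Acot13. With those same 2 libraries dropped, Acot13 and Bdh1 were not called. The number of called genes was then 2 higher for thick and thin filaments, 1 lower for the tricarboxylic acid cycle, 0 lower for respiratory chain subunits, 15 lower for ribosomal proteins, 5 lower for the proteasome and 3 higher for fibroblast markers. The log2 fold change of 3 genes that were not called turned sign. For Nppa it was -0.966 with those same 2 libraries dropped, and -0.768 to 2.42 with 1 library left out. Leaving out 1 library gave -0.610 to 0.0338 for Nppb and -0.284 to 0.0947 for Kcnj5. The cause of these moves was not tested. At 67965311 to 76292772 counts per library, depth limits chiefly genes of few counts, such as Fpr2, and 2 libraries per group limit the interaction.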

Other observations

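Genes of cell adhesion, guidance and signalling that the sections above leave out were also called. The integrin genes Itga9 (1.54 ± 0.12), Itga8 (1.26 ± 0.17) and Itga1 (0.81 ± 0.12), whose products bind matrix, rose. Itga9 was at 11.2 and 13.5 CPM in WT control, 14.2 and 17.0 in Fpr2-KO control, 44.0 and 39.4 in WT SuHx and 38.4 and 40.2 in Fpr2-KO SuHx, with no overlap between groups (edgeR log2 fold change 1.54 ± 0.12, adjusted p = 0.000205). Ntn1, the guidance cue netrin 1, fell from 125 to 194 CPM in the controls to 58.3 to 70.7 CPM under SuHx (edgeR log2 fold change -1.29 ± 0.15, adjusted p = 0.000696), whereas its receptor gene Unc5b (1.29 ± 0.28) and the semaphorin receptor gene Plxnd1 (1.21 ± 0.26), both of endothelium, rose. Inhbb, an activin subunit, fell from 3.08 to 4.87 CPM in the controls to 0.838 to 1.18 CPM under SuHx (edgeR log2 fold change -1.89 ± 0.24, adjusted p = 0.00109), and Bmpr2, the receptor gene mutated in heritable pulmonary hypertension, fell slightly (-0.43 ± 0.10). Wnt11 (-1.32 ± 0.19), a ligand of heart development, and the Hippo pathway genes Lats1 (-0.82 ± 0.09) and Tead1 (-0.59 ± 0.11) fell. Ace, which makes angiotensin II, rose (0.72 ± 0.14) and Agt, its precursor, fell (-1.16 ± 0.25). None of these calls ended without any single library, but those of Unc5b (edgeR adjusted p = 0.130) and Bmpr2 (0.0692) ended when both Fpr2-KO SuHx library 2 and WT control library 1 were dropped.

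Among stress and metal-handling genes, Atf4, the transcription factor of the integrated stress response, was at 88.1 and 142 CPM in WT control, 128 and 176 in Fpr2-KO control, 56.0 and 61.5 in WT SuHx and 60.8 and 70.2 in Fpr2-KO SuHx (edgeR log2 fold change -1.09 ± 0.16, adjusted p = 0.00211), with the controls above the SuHx libraries. Its target Psat1, an enzyme of serine synthesis, fell as well (-1.15 ± 0.19). Of 27 tested unfolded protein and ATF4 stress genes 6 were called lower and 2 higher (median -0.06), beside 11.9% and 13.1% of all tested genes. Chac1 was among the higher, a call that ended when any one of 6 libraries was left out. Cp, the copper oxidase ceruloplasmin, fell from 123 to 160.2 CPM in the controls to 60.1 to 72.5 CPM under SuHx (edgeR log2 fold change -1.04 ± 0.09, adjusted p = 0.000311) and Steap3, a metalloreductase, rose (0.998 ± 0.15). Anxa2 (1.10 ± 0.15) and its partner S100a10 (0.92 ± 0.14), which organise membranes, rose, though the S100a10 groups overlapped. Uhrf1 (1.70 ± 0.37) and Dnmt1 (0.71 ± 0.15), which copy DNA methylation after replication, rose with low levels of 0.546 to 0.930 CPM in the controls and 0.978 to 3.09 CPM under SuHx for Uhrf1. Kit, a receptor of mast cells and other cells, was at 0.986 to 2.51 CPM in the controls and 5.49 to 8.45 CPM under SuHx (edgeR log2 fold change 1.86 ± 0.28, adjusted p = 0.00228), and Cd209a, a marker of dendritic cells, at 0 to 0.273 CPM in the controls and 0.664 to 1.36 CPM under SuHx (edgeR log2 fold change 3.65 ± 0.86, adjusted p = 0.0149). The summed level of the mast cell and dendritic markers was 18.1 to 27.0 CPM in control and 29.7 to 34.0 CPM in SuHx. Pparg (-0.78 ± 0.18) and Lipe (-1.02 ± 0.18), genes of fat cells that muscle also expresses, fell, at a summed adipocyte marker level of 449 to 825 CPM in control and 407 to 449 CPM in SuHx.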
